A study of Homo sapiens with 6 samples.

Results

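Amino acid transporters were examined in 786-O cells, an established line from a clear cell renal carcinoma, with and without knockdown of YB1. The genes were taken by symbol, as every gene of the solute carrier families SLC1, SLC3, SLC6, SLC7, SLC36, SLC38 and SLC43 in the deposited table, which gave 59 of 20030 genes. The rule also brings in carriers of related substrates, such as taurine, creatine, monoamines and purine bases. Of the 59 genes, 22 averaged at least 1 FPKM over all 6 libraries and were tested, among 10439 genes tested in all. FPKM, the unit of the deposited values, counts fragments per kilobase of transcript, scaled to the mapped fragments of the library, so levels of different genes are compared here per length.

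Both groups were stable lines made with lentivirus, labelled as passages 16 to 18. The vector group carried a scrambled shRNA and the shYB1 group an shRNA against YB1, the product of YBX1. RNA was taken a week after puromycin selection, and each group had 3 libraries of total RNA. The series text speaks of 3 independent shRNAs, whereas the labels give a single shYB1 group, so that the shYB1 libraries could not be assigned to separate hairpins. No label says whether the libraries of a group came from separate cultures, and the p-values measure only the spread between libraries, which may be technical.

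Amino acids enter and leave cells through families of carriers that differ in substrate and in coupling to sodium, protons or a second amino acid. Several SLC7 proteins, the light chains, reach the plasma membrane only when bound to a heavy chain of the SLC3 family, and they exchange one amino acid for another, so that uptake of leucine, arginine or cystine depends on amino acids already inside. In the kidney the proximal tubule, from which clear cell carcinoma is thought to arise, reclaims filtered amino acids through luminal carriers and passes them to the blood through basolateral ones such as SLC7A7.

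The target of the knockdown was looked at first. YBX1 averaged 372 ± 5.70 FPKM (SD, n = 3) in vector cells and 169 ± 4.04 FPKM (SD, n = 3) in shYB1 cells, a log2 fold change of −1.14 (standard error 0.031). The kidney markers PAX8, PAX2, CDH6, EPAS1, KRT8, KRT18 and VIM were 7 of 7 above 1 FPKM, with PAX8 at 77.1 ± 0.238 FPKM in vector and 77.5 ± 1.67 FPKM in shYB1 cells (SD, n = 3). CDH6, a cadherin of the tubule lineage, fell from 47.9 ± 0.435 to 33.0 ± 0.299 FPKM (SD, n = 3; adjusted p = 3.92e-06 from limma with Benjamini-Hochberg adjustment). PAX2, a kidney lineage factor, rose from 17.1 ± 0.537 to 19.0 ± 0.740 FPKM (SD, n = 3; limma, Benjamini-Hochberg adjusted p = 0.0392), a call that 9 of 15 alternatives lost, and the other 5 were not called. The kidney markers summed to 1871, 1892 and 1962 FPKM with vector and 1921, 1939 and 1956 FPKM with shYB1, mostly VIM, and their part in the transporter differences was not tested. Markers of leukocytes, endothelium, hepatocytes, muscle and astrocytes were 0 of 5 above 1 FPKM, and the most abundant was PECAM1 at 0.384 FPKM in vector and 0.278 FPKM in shYB1 cells. Of the carriers and receptors of the proximal tubule, SLC3A1, SLC6A19, SLC7A9, SLC7A7, LRP2 and CUBN, SLC7A7 was the 1 of 6 above 1 FPKM, and SLC6A19 and LRP2 were listed at 0 in all 6 libraries.

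Knockdown moved most of the expressed transporters little, and SLC7A7 stood apart with a level in shYB1 cells about 0.506 times that of vector cells. At an adjusted p under 0.05, 5 of 22 members (22.7%) were higher in shYB1 cells, beside 18.7% of all genes tested, and 2 of 22 (9.09%) were lower, beside 6.93% of all genes tested. Both shares of the members lay near those of all genes. The higher members were SLC7A6, SLC7A5, SLC38A5, SLC1A5 and SLC6A8, and the lower ones SLC7A7 and SLC6A6. The median log2 fold change of the 22 members was 0.072, against 0.055 for all genes tested. Calls over all genes leaned upward with the deposited scaling, with which 73.0% of them were higher, against 47.9% after scaling by median-of-ratios size factors, where 2 members were higher and 4 lower. With median-of-ratios and quantile scaling the median of the members was 0.0150 and 0.0165, against −0.000565 and 0.00222 for all genes tested. In 13 of 22 members (59.1%) the libraries of the 2 groups did not overlap, beside 42.6% of all genes tested. The screening criteria of the study's methods, a fold change of at least 2 and an unadjusted p under 0.05, were met by 0 of 22 members with limma, beside 0.22% of all genes tested, and 12 of the 22 had an unadjusted p under 0.05, beside 39.0% of all genes tested. A lower level in bulk RNA can come from fewer cells of a type or from less RNA per cell, which cannot be told apart here.

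**Figure D1:**
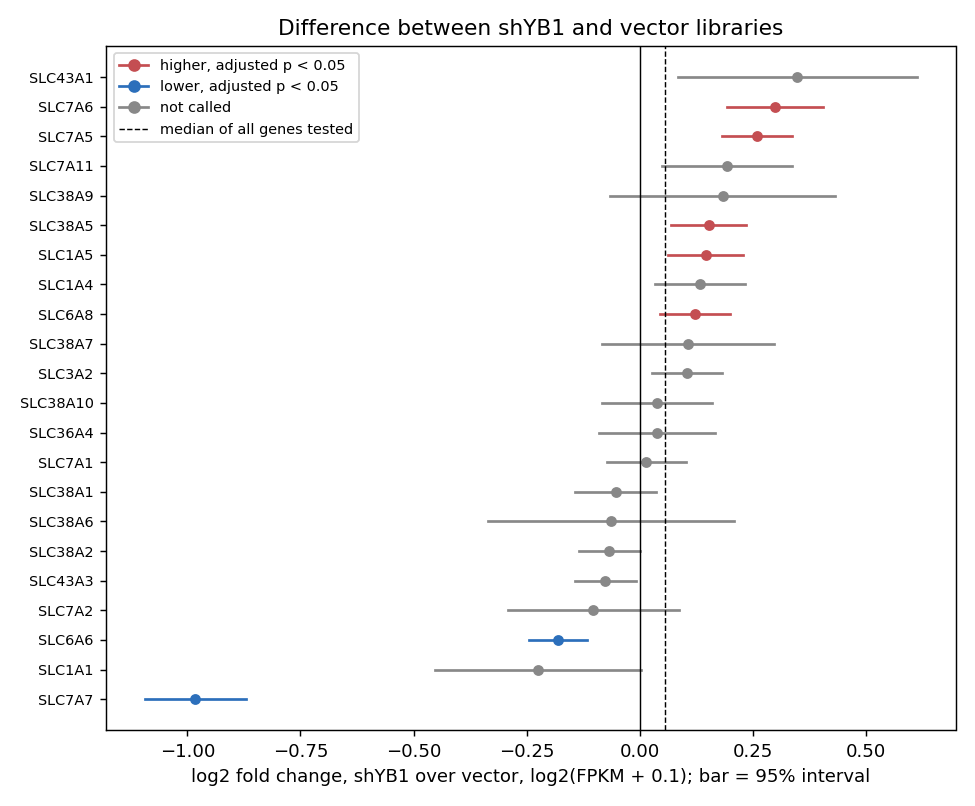
Log2 fold change of each tested transporter, shYB1 over vector, on the log2(FPKM + 0.1) scale, with 95% intervals from limma as bars; colours mark the calls at an adjusted p under 0.05 and the dashed line is the median of all genes tested. SLC7A7 lies at −0.98, while the other 21 members lie between −0.22 and 0.35.

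The levels of the members spanned more than the differences between groups. Over the 6 libraries, 4 members averaged at least 100 FPKM (SLC6A6, SLC43A3, SLC7A5 and SLC38A2), 6 lay between 30 and 100 FPKM, 6 between 5 and 30 FPKM and 6 between 1 and 5 FPKM. SLC6A6 alone made up 41.1 ± 0.333% of the summed member FPKM in vector cells and 37.5 ± 0.244% in shYB1 cells (SD, n = 3; p = 0.1 by a two-sided exact permutation test, the smallest value possible for 3 libraries against 3). The sum over all members was 1309 ± 20.2 FPKM in vector and 1264 ± 12 FPKM in shYB1 cells (exact permutation p = 0.1). Without SLC6A6 the sums were 771 ± 15.1 and 789 ± 6.63 FPKM, and the libraries of the groups overlapped (exact permutation p = 0.3).

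**Figure D2:**
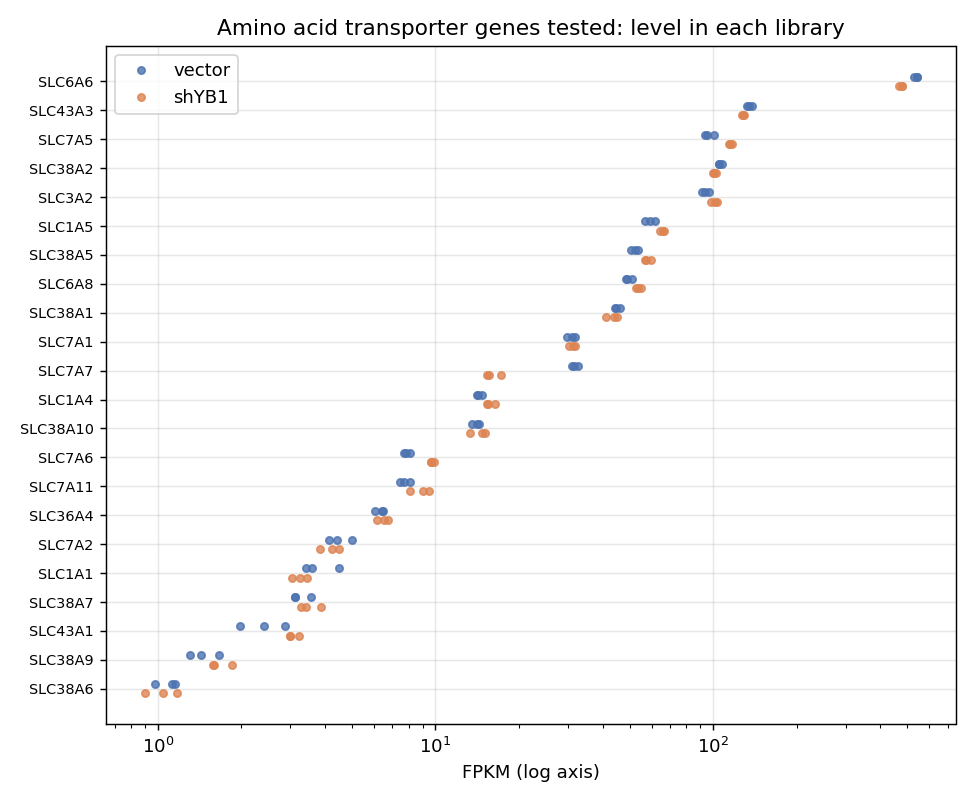
FPKM of the 22 tested transporters in each library, on a log axis, ordered by mean level; blue points are the 3 vector libraries and orange points the 3 shYB1 libraries. Levels run from about 1 FPKM for SLC38A6 to 506 FPKM for SLC6A6, and SLC7A7 is the member whose groups are visibly far apart.

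SLC3A2 encodes the CD98 heavy chain, the partner that carries the light chains SLC7A5, SLC7A6, SLC7A7, SLC7A8, SLC7A10 and SLC7A11 to the membrane. It lies at chr11:62856102-62888875 on the plus strand of GRCh38. Vector libraries gave 91.2, 93.5 and 96.9 FPKM, against 98.1, 103 and 101 FPKM in shYB1 libraries. The groups did not overlap, but the shift was small, with a log2 fold change of 0.10 (standard error 0.035), and missed the threshold (adjusted p = 0.0522, limma with Benjamini-Hochberg adjustment). It was called higher with a filter at 5 FPKM, a common total and quantile scaling (limma adjusted p of 0.0398, 0.0214 and 0.0389). The same held with the replicate number as a block and without vector replicate 3 (limma adjusted p of 0.0274 and 0.0217). The limma adjusted p ranged from 0.0214 to 0.285 over 15 alternatives, and median-of-ratios scaling lowered the log2 fold change of SLC3A2 to 0.048. The other heavy chain, SLC3A1, which serves luminal cystine uptake with SLC7A9, averaged 0.239 FPKM in vector and 0.221 FPKM in shYB1 cells and was not tested.

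The light chains moved in opposite directions. SLC7A7, which releases arginine and lysine from epithelial cells in exchange for neutral amino acids and sodium, and whose loss causes lysinuric protein intolerance, fell. With vector, FPKM values of 31.1, 31.6 and 32.7 were found, and with shYB1 values of 15.6, 17.2 and 15.3. Every shYB1 library was near one level, far under every vector library. The log2 fold change was −0.98 ± 0.050 (standard error, 95% interval −1.09 to −0.87; limma, Benjamini-Hochberg adjusted p = 1.33e-06), and 0.211% of the genes tested had a more negative one. The fold was just short of the 2 that the screening criteria ask for, and without shYB1 replicate 2, the highest of its group, SLC7A7 met them. The gene lies at chr14:22773222-22829820 on the minus strand, and 2.25% of the 50-base words of its transcripts also occur in transcripts of other genes.

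SLC7A5, better known as LAT1, takes up leucine and other large neutral amino acids, and it rose. Levels by library were 95.1, 93.7 and 100.3 FPKM with vector and 117, 115 and 114 FPKM with shYB1. The groups were clearly separate, and the log2 fold change was 0.26 ± 0.035 (standard error; limma, Benjamini-Hochberg adjusted p = 0.000618). Its locus is chr16:87830023-87869488, minus strand, and 8.65% of its words are shared, most often with the pseudogene SMG1P3.

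SLC7A6 exchanges arginine for glutamine and sodium, as SLC7A7 does, and its listed level rose where SLC7A7 fell. The vector cells had 7.83, 7.69 and 8.09 FPKM in their replicates, and the shYB1 cells 9.89, 9.61 and 9.62 FPKM. The groups stood apart, with a log2 fold change of 0.30 ± 0.048 (standard error; limma, Benjamini-Hochberg adjusted p = 0.00169). This value is uncertain as to its source, because SLC7A6 (chr16:68264516-68301823, plus strand) overlaps SLC7A6OS on the opposite strand. Of the words of SLC7A6 51.4% are shared, most often with SLC7A6OS, and no source used here states that strand was kept. SLC7A6OS averaged 3.68 FPKM in vector and 4.45 FPKM in shYB1 cells, with a log2 fold change of 0.29 (standard error 0.135) that was not called.

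SLC7A11, the xCT light chain that imports cystine for glutathione in exchange for glutamate, missed the threshold. Per library it measured 7.43, 7.68 and 8.08 FPKM with vector and 9.45, 9.03 and 8.10 FPKM with shYB1. The lowest shYB1 library was close to the highest vector library, and the log2 fold change was 0.19 ± 0.065 (standard error; limma, Benjamini-Hochberg adjusted p = 0.0521). A filter at 5 FPKM gave an adjusted p of 0.0376, leaving out vector replicate 3 gave 0.0475 and leaving out shYB1 replicate 3 gave 0.0185, within a range of 0.0185 to 0.172 over 15 alternatives with limma. Of the words of SLC7A11 9.19% are also found elsewhere, most often in its antisense gene SLC7A11-AS1.

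**Figure D3:**
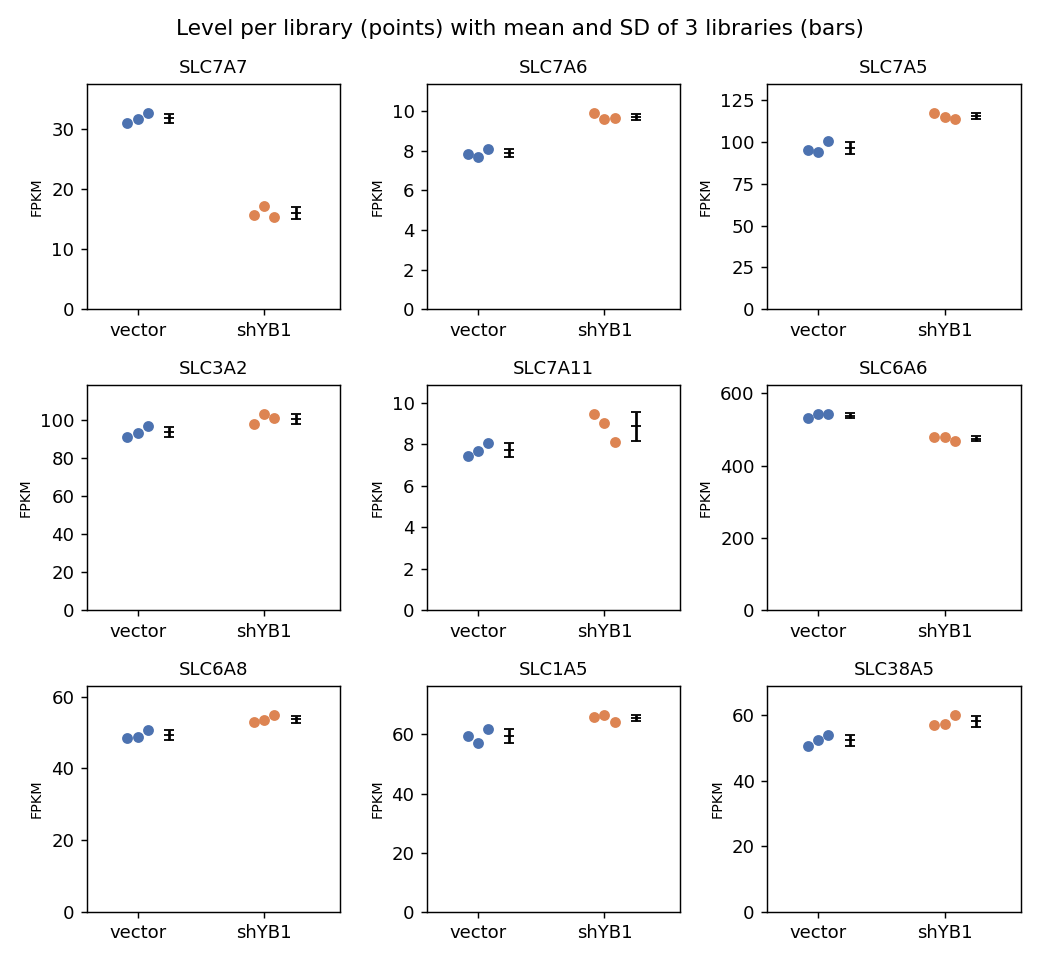
FPKM per library of the 7 called members and of SLC3A2 and SLC7A11, each panel with an axis from 0; points are libraries and the black bars mean and SD of 3 libraries. SLC7A7 drops from 31.8 to 16.1 FPKM on average, and the remaining panels show shifts that are small beside the level.

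Set against each other within a library, the light chains changed in make-up more than in sum. Of the summed light chain FPKM, SLC7A5 made up 67.2%, 66.6% and 67.3% with vector and 77.0%, 76.2% and 77.5% with shYB1. SLC7A7 made up 22.1 ± 0.307% in vector and 10.7 ± 0.627% in shYB1 cells (SD, n = 3). The ratio of SLC7A5 to SLC7A7 went from 3.03 ± 0.058 to 7.20 ± 0.461, and that of SLC7A6 to SLC7A7, carriers with shared substrates, from 0.248 ± 0.0043 to 0.606 ± 0.043 (SD, n = 3), the latter with the same uncertainty about SLC7A6 reads. In each of these 4 quantities the groups did not overlap, and the two-sided exact permutation test gave p = 0.1, the smallest it can give here. SLC7A5 and SLC7A6 were already higher, and SLC7A7 lower, without overlap, so the ratios had to separate and their p was fixed in advance. The shares restate the same differences. The summed light chains per SLC3A2 averaged 1.53 ± 0.023 in vector and 1.49 ± 0.057 in shYB1 cells, with overlapping groups (exact permutation p = 0.4). Such ratios show unequal change and do not depend on a scaling factor common to all genes of a library. Quantile scaling has no such common factor, and the shares and ratios are not given with it.

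**Figure D4:**
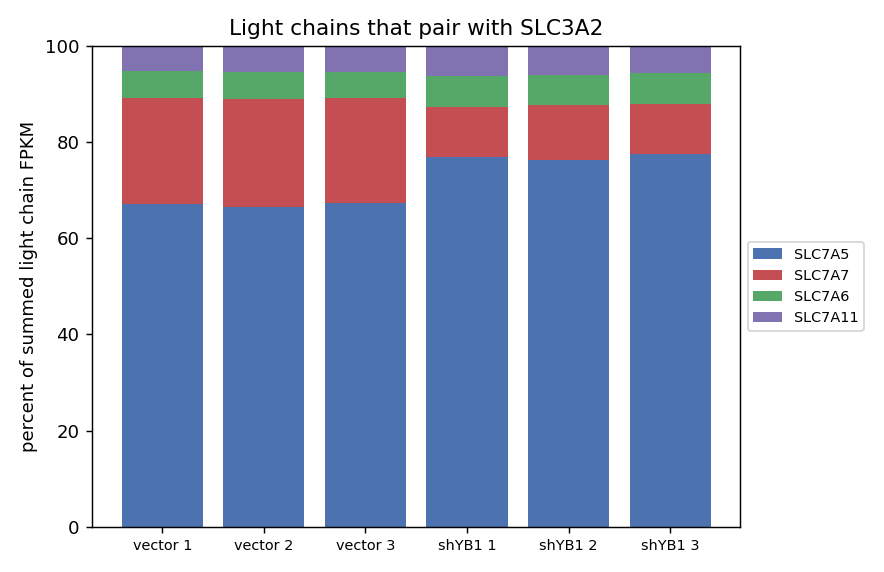
Share of each light chain in the summed FPKM of the light chains that pair with SLC3A2, one bar per library, in percent; SLC7A8 and SLC7A10 are in the sum but too low to draw. The SLC7A5 segment grows from about 67.0% to 76.9% and the SLC7A7 segment shrinks from 22.1% to 10.7%.

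The cationic carriers that need no heavy chain gave no call. SLC7A1, the main arginine and lysine importer of most cells, averaged 30.9 ± 0.956 FPKM in vector and 31.2 ± 0.806 FPKM in shYB1 cells (SD, n = 3). The log2 fold change was 0.014, within a 95% interval of −0.073 to 0.10, and its sign turned with median-of-ratios and quantile scaling. SLC7A2, an arginine carrier induced in macrophages and liver, averaged 4.52 ± 0.438 and 4.20 ± 0.335 FPKM (SD, n = 3) with a log2 fold change of −0.10, which shrank to −0.029 without vector replicate 2. Among the tested arginine carriers, SLC7A7 was lower, SLC7A1 and SLC7A2 were not called, and the FPKM listed for SLC7A6 was higher, with the source of its reads uncertain.

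The neutral carriers of the SLC1 family are exchangers for serine, alanine and, in SLC1A5 (ASCT2), glutamine. SLC1A5 rose, from 59.4, 57.0 and 61.7 FPKM with vector to 66.1, 66.5 and 64.3 FPKM with shYB1. The groups did not overlap, and the log2 fold change was 0.15 ± 0.037 (standard error; limma, Benjamini-Hochberg adjusted p = 0.0177). The call was lost with median-of-ratios scaling, when the variance prior had no trend, and without vector replicate 2, shYB1 replicate 1 or shYB1 replicate 2, where limma gave adjusted p of 0.0626, 0.0577 and 0.0647 in a range of 0.00682 to 0.10 over 15 alternatives. Part of its transcripts (21.3% of words) is shared, most often with the antisense gene AC008622.2, so its reads may not all be its own. SLC1A4, which prefers serine, alanine and cysteine, averaged 14.4 ± 0.294 FPKM in vector and 15.8 ± 0.560 FPKM in shYB1 cells, a log2 fold change of 0.13 (adjusted p = 0.0502 by limma with Benjamini-Hochberg adjustment) that was called with a filter at 5 FPKM (adjusted p = 0.0402, in a range of 0.0402 to 0.276 over 15 alternatives). SLC1A1, a glutamate and aspartate carrier of the kidney and brain, averaged 3.83 ± 0.589 and 3.25 ± 0.201 FPKM, with overlapping groups and a log2 fold change of −0.22 (adjusted p = 0.133, limma), which was −0.11 without vector replicate 3.

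The promoters of SLC1A4 and SLC1A5 are shown because, of the tested members matched, these were the only ones with the second of the words searched, and that of SLC7A7 because it changed most. The words were CCAAT, read on the other strand as ATTGG, the core of the Y-box after which YB1 is named, and TGATGCAA, read on the other strand as TTGCATCA, a form of the element bound by C/EBP and ATF factors in amino acid response genes; they do not overlap each other in these windows. The RefSeq table (GRCh38.p14) gives 250 bases before to 50 after each start, and 18 of the 22 tested members were matched, with 31 starts. CCAAT was found in 6 of 31 member windows (19.4%), against 34.6% of 35116 windows of all genes, and TGATGCAA in 2 of 31 (6.45%), against 0.866%. The last share of the members rests on 2 windows, and the difference was not tested. SLC7A11, SLC7A2, SLC43A3 and SLC6A6 were the tested members with no match. Capitals mark the words, and each sequence is given in the direction of its gene. SLC1A4 (chr2:64989149-64989448, plus strand) holds CCAAT on the reverse strand at −247 and −114 and TGATGCAA on the reverse strand at −7 from the start. SLC1A5 holds CCAAT at −84 in the window of one start (chr19:46788545-46788844, minus strand) and TGATGCAA at −97 in that of another (chr19:46784765-46785064, minus strand), of 3 starts in all. The TGATGCAA window of SLC1A5 lies inside the span of the gene (chr19:46774883-46788594). The most upstream of 3 starts of SLC7A7 (chr14:22819742-22820041, minus strand) has no capitals, and neither word was in its other windows. A match is a description of letters and not of binding, and no match says only that these letters are not in the window.
SLC1A4: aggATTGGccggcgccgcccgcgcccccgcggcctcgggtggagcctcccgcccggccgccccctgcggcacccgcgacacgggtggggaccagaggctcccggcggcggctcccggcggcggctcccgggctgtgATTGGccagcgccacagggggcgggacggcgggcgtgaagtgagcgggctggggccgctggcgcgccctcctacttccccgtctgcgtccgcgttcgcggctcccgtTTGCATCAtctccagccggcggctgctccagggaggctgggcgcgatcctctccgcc
SLC1A5, CCAAT window: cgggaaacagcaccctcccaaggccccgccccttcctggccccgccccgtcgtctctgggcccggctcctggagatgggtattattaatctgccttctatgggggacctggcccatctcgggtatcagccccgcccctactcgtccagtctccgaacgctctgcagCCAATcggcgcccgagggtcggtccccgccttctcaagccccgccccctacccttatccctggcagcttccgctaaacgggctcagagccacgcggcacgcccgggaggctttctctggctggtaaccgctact
SLC1A5, TGATGCAA window: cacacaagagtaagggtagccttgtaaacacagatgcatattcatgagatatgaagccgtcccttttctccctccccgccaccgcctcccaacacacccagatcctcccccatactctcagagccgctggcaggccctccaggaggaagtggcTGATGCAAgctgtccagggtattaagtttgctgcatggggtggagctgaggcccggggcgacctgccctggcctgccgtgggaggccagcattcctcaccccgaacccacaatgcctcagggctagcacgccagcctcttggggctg
SLC7A7: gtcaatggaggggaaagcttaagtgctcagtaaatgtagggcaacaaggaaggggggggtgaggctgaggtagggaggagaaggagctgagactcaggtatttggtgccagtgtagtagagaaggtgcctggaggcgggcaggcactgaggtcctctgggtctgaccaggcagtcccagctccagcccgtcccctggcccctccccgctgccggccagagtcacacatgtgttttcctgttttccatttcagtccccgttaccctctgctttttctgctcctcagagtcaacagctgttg

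In the SLC38 family, SLC38A5, a system N carrier that moves glutamine, serine and glycine with sodium against protons, rose. Vector libraries gave 50.5, 52.5 and 53.8 FPKM, against 57.0, 57.3 and 59.9 FPKM in shYB1 libraries. The groups did not overlap, and the log2 fold change was 0.15 ± 0.037 (standard error; limma, Benjamini-Hochberg adjusted p = 0.0143). Median-of-ratios scaling and a prior with no trend ended the call, as did leaving out vector replicate 1 or shYB1 replicate 3, where limma gave adjusted p of 0.0561 and 0.0512 in a range of 0.00553 to 0.0630 over 15 alternatives. SLC38A2, a system A carrier of alanine and glutamine that cells induce when amino acids run short, averaged 106 ± 1.80 FPKM in vector and 101 ± 1.29 FPKM in shYB1 cells (SD, n = 3). Its log2 fold change of −0.067 was not called (adjusted p = 0.129) with limma as deposited, and was called lower with median-of-ratios scaling (−0.12, adjusted p = 0.0118, in a range of 0.0118 to 0.303 over 15 alternatives). SLC38A1, the other system A carrier tested, averaged 45.0 ± 0.952 and 43.3 ± 1.93 FPKM with no call. The ratio of SLC38A5 to SLC38A2 was 0.493 ± 0.018 in vector and 0.574 ± 0.021 in shYB1 cells, without overlap (SD, n = 3; two-sided exact permutation p = 0.1). All shYB1 libraries already lay above vector for SLC38A5 and below it for SLC38A2, so this ratio had to separate.

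Lysosomal carriers and the remaining tested members of the SLC38 and SLC36 families gave no call. SLC38A9, a lysosomal carrier that reports arginine to mTORC1, averaged 1.47 ± 0.185 FPKM in vector and 1.68 ± 0.157 FPKM in shYB1 cells (SD, n = 3), and SLC38A7, a lysosomal exporter of glutamine and asparagine, 3.27 ± 0.263 and 3.53 ± 0.313 FPKM. SLC38A10 (14.0 ± 0.459 and 14.4 ± 0.923 FPKM), SLC38A6 (1.09 ± 0.098 and 1.04 ± 0.136 FPKM) and SLC36A4, a carrier of proline and tryptophan (6.30 ± 0.223 and 6.48 ± 0.303 FPKM), had overlapping groups as well. The signs of the SLC38A10 and SLC36A4 differences turned with median-of-ratios and quantile scaling, and that of SLC38A6 without shYB1 replicate 2.

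SLC43A1, a sodium-independent carrier of leucine and phenylalanine, averaged 2.42 ± 0.451 FPKM in vector and 3.07 ± 0.141 FPKM in shYB1 cells (SD, n = 3). Its log2 fold change of 0.35 (standard error 0.119) was the largest positive one of the members, but the vector libraries spread widely and it was not called (adjusted p = 0.0555 by limma with Benjamini-Hochberg adjustment). It was called with a common total (limma adjusted p = 0.0469) and with the replicate number as a block (limma adjusted p = 0.0268). Without vector replicate 2 it was called too (log2 fold change 0.48, limma adjusted p = 0.0127), in a range of 0.0127 to 0.156 over 14 alternatives. Without vector replicate 1 the log2 fold change was 0.21. Its neighbour on chromosome 11, SLC43A3, which carries purine bases rather than amino acids, lies 56954 bases away and averaged 135 ± 2.81 FPKM in vector and 128 ± 0.934 FPKM in shYB1 cells. SLC43A3 was not called as deposited (log2 fold change −0.076, adjusted p = 0.0895 by limma) and was called lower with median-of-ratios scaling (−0.13, adjusted p = 0.00773) and with a common total (−0.080, adjusted p = 0.0380), in a range of 0.00773 to 0.215 over 15 alternatives. Of its words 24.3% are shared, most often with the overlapping gene AP000781.2, which leaves its level uncertain.

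The SLC6 family was represented by carriers of organic osmolytes and of creatine. SLC6A6, the sodium and chloride coupled taurine carrier, was the most abundant transporter, above 99.2% of the genes tested, and it fell. With vector, FPKM values of 530.3, 542 and 541 were found, and with shYB1 values of 478, 478 and 467. The groups stood clearly apart for a small shift, with a log2 fold change of −0.18 ± 0.029 (standard error; limma, Benjamini-Hochberg adjusted p = 0.00171). The gene lies at chr3:14402576-14489349 on the plus strand. It shares 2.35% of its words, most often with GRIP2, whose end overlaps its own on the opposite strand. SLC6A8, which brings in creatine for the phosphocreatine buffer, rose, from 48.5, 48.8 and 50.9 FPKM with vector to 52.9, 53.5 and 54.8 FPKM with shYB1. The groups did not overlap, and the log2 fold change was 0.12 ± 0.035 (standard error; limma, Benjamini-Hochberg adjusted p = 0.0269). Among the 7 called members this call was the least stable, lost in 8 of 15 alternatives, among them median-of-ratios and quantile scaling and the prior with no trend. Leaving out vector replicate 1, vector replicate 2, shYB1 replicate 1, shYB1 replicate 2 or shYB1 replicate 3 gave limma adjusted p of 0.0887, 0.0777, 0.0511, 0.0689 and 0.0844, in a range of 0.0148 to 0.161. Of the words of SLC6A8 9.30% are shared, most often with the pseudogene SLC6A10P.

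The other 37 members were below a mean of 1 FPKM, and 15 of them were listed at 0 in all 6 libraries. SLC6A12, a betaine and GABA carrier, reached the highest single value among them, 1.25 FPKM in vector replicate 3. SLC1A3 (glutamate), SLC38A4 (system A), SLC43A2 (leucine and other large neutral amino acids) and SLC36A1 (proton-coupled, lysosomal) also reached 0.5 FPKM in at least 1 library, SLC1A3 and SLC38A4 in all 6. SLC38A4 averaged 0.544 ± 0.058 FPKM in vector and 0.730 ± 0.102 FPKM in shYB1 cells, and SLC43A2 0.578 ± 0.050 and 0.390 ± 0.082 FPKM (SD, n = 3), without overlap of the groups; neither was in the main test. The remaining 17 were above 0 in some library but at most 0.345 FPKM. With no filter 44 members were tested, and SLC6A13, a GABA carrier averaging 0.0403 FPKM in vector and 0.117 FPKM in shYB1 cells, was the only one of the added members called by limma, as higher. All 10 SLC6 carriers of amino acids such as glycine and proline, and the 3 monoamine carriers SLC6A2, SLC6A3 and SLC6A4, were among the 37.

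Other amino acid genes were counted beside the transporters. Of 30 tested enzymes of amino acid metabolism, 13 were higher and 3 lower at an adjusted p under 0.05 by limma, beside 18.7% and 6.93% of all genes tested, with a median log2 fold change of 0.17. PSAT1 and PSPH are later enzymes of the route from a glycolytic intermediate to serine. They averaged 90.5 ± 1.92 and 17.7 ± 0.603 FPKM in vector and 127 ± 3.16 and 22.6 ± 0.571 FPKM in shYB1 cells (SD, n = 3), with log2 fold changes of 0.49 and 0.35. PHGDH, the first enzyme of that route, was at most 0.0471 FPKM in any library. BCAT1, which transaminates leucine, isoleucine and valine, had a log2 fold change of 0.46 and GLUD1, glutamate dehydrogenase, 0.31. GCLM, a subunit of the first enzyme of glutathione synthesis, had 0.28. The value of GLUD1 is uncertain, as 31.2% of its words are shared, most often with GLUD2. Of 36 tested genes of amino acid sensing by mTORC1, the kinase complex that couples growth to nutrients, 3 were higher and 3 lower. These counts are to be set beside the same 2 shares of all genes, and the median was −0.028. The list, called sensing genes here, also holds subunits and other regulators of mTORC1. The 3 higher genes, MTOR, AKT1S1 and RPTOR, were such subunits. Median-of-ratios and quantile scaling each gave 2 higher and 6 lower, with medians of −0.082 and −0.091, and the sign of the median turned with a filter at 5 FPKM (0.026 over 23 genes). The small GTPase RRAGA fell from 138 ± 1.0 to 111 ± 0.709 FPKM (SD, n = 3; log2 fold change −0.32), its relative RRAGB had a log2 fold change of −0.37 and NPRL2, part of a complex that switches the GTPases off, −0.31. MTOR itself rose from 7.30 ± 0.376 to 8.55 ± 0.092 FPKM (log2 fold change 0.23), and AKT1S1, an mTORC1 subunit, had 0.26. RRAGB was called in 11 of 14 alternatives and AKT1S1 in 11 of 15. Of 11 tested amino acid carriers outside the 7 families, the 2 with a call by limma were both higher, beside the same 18.7% of all genes. The median of the 11 was 0.095. With a library left out it ran from 0.031 without vector replicate 1 to 0.163 without shYB1 replicate 3. A filter at 5 FPKM gave 0.0230 over 4 genes. The 2 called were the mitochondrial carriers SLC25A13, for aspartate and glutamate (log2 fold change 0.27), and SLC25A38, for glycine (0.28, called in 9 of 14 alternatives).

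**Figure D5:**
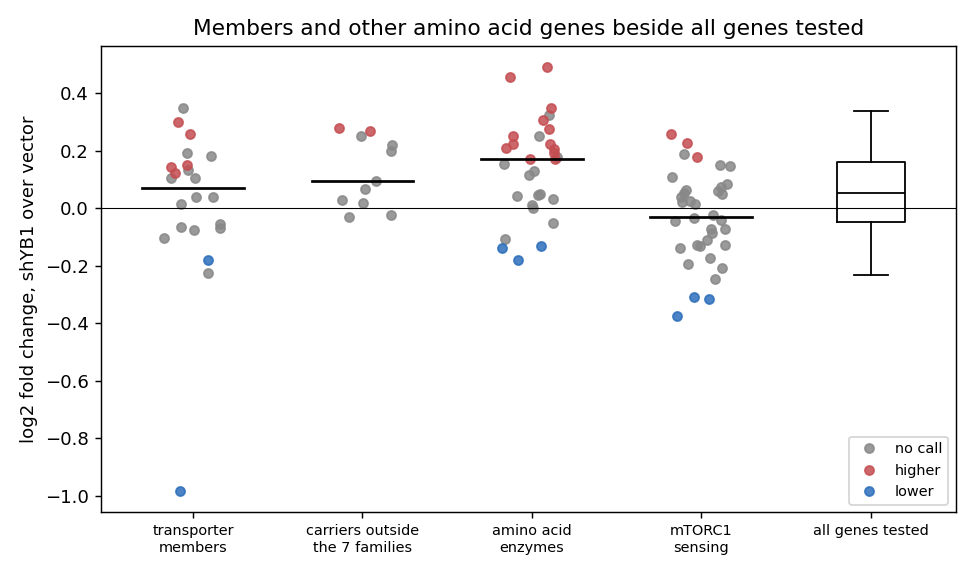
Log2 fold change of the tested transporters, of 3 other lists of amino acid genes and of all genes tested, shYB1 over vector; each point is a gene, coloured by its call, and horizontal lines are medians. The box spans the 25th to 75th percentile of all genes tested and its whiskers the 5th to 95th (−0.23 to 0.34). The medians are 0.072 for the transporters, 0.095 for other carriers, 0.17 for enzymes, −0.028 for sensing genes and 0.055 for all genes.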

How the data were processed

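The authors deposited FPKM, a length- and depth-scaled level per gene, for 3 vector and 3 shYB1 libraries. The submitters' processing notes name Trimmomatic, HISAT2, Cufflinks, HTSeq, DESeq and GRCh38, without versions or roles. The table holds no counts, so absolute depth is unknown. Relative depth was taken as the most frequent ratio between libraries among the lowest values (below 0.08 FPKM). Ratios far from 1 were left out, so a large difference in depth could not have been seen. It ran from 0.980 to 1.10 with shYB1 replicate 1 taken as 1. All columns of library values were used (0 left out).

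From these values log2(FPKM + 0.1) was taken for genes averaging 1 FPKM or more, and the groups were compared by limma 3.58.1 in R 4.3.3 (two-sided; lmFit, eBayes with trend and robust prior), p-values being adjusted after Benjamini-Hochberg over 10439 genes. Fold changes on this scale understate those of low genes. This step had been tested on simulated data. Ratios were compared by two-sided exact permutation tests over libraries. Positions, overlaps and shared 50-base words came from GENCODE release 29 (GRCh38) and promoters from RefSeq, with Python 3.11.15, NumPy 2.4.6, pandas 2.3.3 and matplotlib 3.10.9.

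Named genes are YBX1, every member tested, members under the filter that reach 0.5 FPKM in at least 1 library, and from each other list up to 5 called genes with the largest absolute log2 fold change, beside the cell markers. SLC3A1, SLC6A2, SLC6A3 and SLC6A4, SLC6A13 for its call with no filter, and the genes of the closing section were named outside this rule, after their values were seen. SLC7A8 and SLC7A10 were named as light chains, and SLC7A6OS and other genes for overlap or sequence shared with named genes, also outside this rule. Members and lists were chosen with earlier results of these data known. Alternatives were pseudocounts of 1 and 0.01, no filter or one at 5 FPKM, 3 other scalings, a prior with no trend, the replicate number as a block, omission of single libraries and a fold limit of 1.5.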

Additional observations from a re-analysis of the deposited data

How the results depend on the processing

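SLC7A7, SLC6A6, SLC7A5 and SLC7A6 kept their direction and their call by limma in all 15 alternatives, and so did YBX1. The SLC7A5 share of light chain FPKM stayed higher in shYB1 cells without any single library. The number of members higher was 5 as deposited, 6 with no filter, SLC6A13 being added, 8 with a filter at 5 FPKM, where fewer genes were tested, 2 with median-of-ratios scaling and 2 without the trend. It ran from 3 to 7 with 1 library left out, and was 3 without vector replicate 1, shYB1 replicate 1 or shYB1 replicate 2. With a common total 7 members were higher and 3 lower. The number lower went from 2 to 4 with median-of-ratios scaling, where the log2 fold changes of SLC1A5, SLC38A5, SLC6A8 and SLC1A4 were 0.089, 0.095, 0.065 and 0.077. The screening criteria were met by 1 member, SLC7A7, with median-of-ratios or quantile scaling or a fold limit of 1.5, and by 0 to 1 with a library left out. The median log2 fold change of the members was 0.0215 with no filter, 0.0150 with median-of-ratios and 0.0165 with quantile scaling, and 0.0439 to 0.0905 with a library left out. Of all genes, 1956 were higher and 723 lower as deposited, 1171 and 1273 with median-of-ratios and 1270 and 1186 with quantile scaling, whose median over all genes was −0.000565 and 0.00222.

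Signs turned only for members that were not called. With median-of-ratios and quantile scaling the log2 fold change of SLC36A4 was −0.018 and −0.022, that of SLC38A10 −0.018 and −0.020 and that of SLC7A1 −0.043 and −0.038. With a library left out SLC7A1 ran from −0.0102 to 0.0343 and SLC38A6 from −0.147 to 0.0267. Apart from scaling, the cause of these moves was not tested. With the replicate block 7 members were higher and 2 lower, SLC3A2 and SLC43A1 being added. Deviations of same-numbered libraries correlated at −0.169, −0.0590 and −0.00824, so no pairing by number was seen in these values. For the other lists, the same alternatives were chosen after seeing the data. Enzymes gave 11 to 13 higher and 1 to 3 lower, sensing genes 1 to 5 higher and 1 to 6 lower, with 2 and 6 under median-of-ratios and quantile scaling, and other carriers 1 to 3 higher. With a library left out the median of the sensing genes ran from −0.0376 to −0.00270, the latter without vector replicate 3, and with a filter at 5 FPKM that of the other carriers was 0.0230 over 4 genes. Calls of RRAGB (without vector replicate 1, shYB1 replicate 1 or shYB1 replicate 3), AKT1S1 (with no filter and without vector replicate 1, shYB1 replicate 2 or shYB1 replicate 3) and SLC25A38 (with no filter and without vector replicates 1 or 2 or shYB1 replicates 2 or 3) were lost, with limma adjusted p up to 0.0725, 0.0607 and 0.0786. Depth in fragments is unknown, which leaves the counting error of the members under 1 FPKM unmeasured.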

Other observations

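The genes around SLC7A7 differed in direction. MRPL52, a mitochondrial ribosomal protein gene that begins 58 bases from SLC7A7 on the opposite strand, rose from 4.25 to 5.61 FPKM on average (log2 fold change 0.40, standard error 0.079, adjusted p = 0.00505 by limma with Benjamini-Hochberg adjustment). MMP14, a membrane-bound matrix protease 6736 bases away, fell by 0.22 on the log2 scale, from 97.6 to 84.0 FPKM. OXA1L, 180 bases from SLC7A7 on its other side, averaged 58.3 FPKM in vector and 53.1 FPKM in shYB1 cells and was not called, nor was LRP10. These neighbours, all within 50 kilobases, were chosen by position. Beside SLC38A5 on the X chromosome, PORCN, an acyltransferase of Wnt proteins 38705 bases away, rose from 20.4 to 29.4 FPKM (log2 fold change 0.52), more than SLC38A5 itself at 0.15, and FTSJ1, a tRNA methyltransferase 5764 bases away, rose from 21.3 to 25.2 FPKM (log2 fold change 0.25). TIMM10, a mitochondrial import gene 12676 bases from SLC43A1, rose from 5.60 to 7.49 FPKM (log2 fold change 0.42, limma adjusted p = 0.00327), and PDGFRL, 5859 bases from SLC7A2, fell from 4.99 to 4.11 FPKM (log2 fold change −0.28, limma adjusted p = 0.0394). Of 32 tested neighbours of the tested members, these 6 (18.8%) were called, beside 25.7% of all genes tested. The calls of MRPL52, MMP14, PORCN, FTSJ1 and TIMM10 held in every alternative run for them, and that of PDGFRL was lost in 6 of 14.

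Serine synthesis genes stood at very unequal levels. PHGDH, the first enzyme of that route, was listed at 0 in all 3 shYB1 libraries and at 0.0471, 0.0385 and 0.00583 FPKM in the vector libraries, whereas PSAT1, the next enzyme, averaged 90.5 and 127 FPKM and PSPH, the last, 17.7 and 22.6 FPKM in vector and shYB1 cells. Of 26 genes that every cell uses, the subunits of RNA polymerase II and of the proteasome core, 0 were listed at 0 in any library. GLUL, glutamine synthetase, averaged 0.303 and 0.204 FPKM, whereas ASNS, asparagine synthetase, averaged 45.3 and 52.3 FPKM (log2 fold change 0.21, adjusted p = 0.00259 by limma with Benjamini-Hochberg adjustment, with 40.6% of its words shared with other transcripts). The 3 enzymes that were lower were SHMT1, the cytosolic serine hydroxymethyltransferase, with a log2 fold change of −0.18, ASL, of arginine synthesis, with −0.14, and ALDH18A1, of proline synthesis, with −0.13. SHMT2, the mitochondrial counterpart of SHMT1, was higher, with a log2 fold change of 0.17. SHMT1 and SHMT2 were called in all 15 alternatives and ASL and ALDH18A1 in 9 of 15 each. The third higher gene of the mTORC1 list was RPTOR, a subunit of mTORC1, with a log2 fold change of 0.18, called in 6 of 15 alternatives.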
